A study of Mus musculus with 6 samples.

Results

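The 9 genes described here are the mouse RNA 5-methylcytosine (m5C) methyltransferase genes Nop2, Nsun2, Nsun3, Nsun4, Nsun5, Nsun6, Nsun7 and Trdmt1, together with Alyref, which encodes an m5C-binding mRNA export adaptor. They were chosen by name for these functions and make up 9 of the 17920 genes in the table of the series. All 9 passed the filter on low counts, as did 13669 genes in all. RNA was sequenced from 6 libraries of mouse cortical cells at E13.5 (the age in embryonic days), with 3 control libraries, called WT as in the labels, and 3 libraries with knockdown (KD) of Ybx1, itself an m5C-binding protein. The titles name cortex and the series text speaks of deletion, but by its methods the study used dissociated cortical cells grown in culture and infected with pLKO.1-puro lentivirus that expresses a short hairpin RNA. Both groups received such a virus, against Ybx1 in KD and with a control hairpin in WT, and both were selected with puromycin before RNA was taken. Which of the Ybx1 hairpins the KD libraries carried is not stated, and the genotype labels read only WT and KD. The methods describe the 3 replicates of each group as independent experiments, and the series text speaks of batches of sequencing across biological replicates. The question asked here was whether the transcripts of the enzymes that write m5C, and of a second protein that reads it, changed when the reader Ybx1 was reduced.

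5-methylcytosine is made after transcription by methyltransferases that transfer a methyl group from S-adenosylmethionine to the base through a covalent bond between a cysteine and the cytosine. The NSUN family and Trdmt1 divide the substrates among them, and include enzymes of cytoplasmic tRNA, of mRNA, of ribosomal RNA and of mitochondrial RNA. Reader proteins such as Ybx1 and Alyref bind the modified base in mRNA, and are known for effects on transcript stability and on export from the nucleus. In people, loss of NSUN2 causes intellectual disability with microcephaly, so the writers are of interest in the developing cortex.

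A nucleophile cysteine is the feature that the 8 enzymes have in common. To show it, the codon of the nucleophile cysteine was located in the coding sequence of the principal GENCODE transcript of each gene, by the conserved residues around it, and the 30 bases that contain it are printed 5′ to 3′ on the coding strand with that codon in capitals.
Nsun2: gtgtattccacgTGTtccttgaaccccgtg
Nsun6: gtctacagcacaTGCacaataaccttggca
Trdmt1: atgagccctccaTGCcagccattcacaaga
Nop2: gtctactgcaccTGTtccattacggtggaa
Nsun5: gtctactccacgTGTtccctttgccaagaa
Nsun3: gtgtactctacaTGCacgctttccaaggct
Nsun4: gtctattcaactTGCtcactgtctcactta
Nsun7: gtctattgcacaTGTtctgtttctaaagag

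The 7 NSUN family windows were found by the same pattern of residues, which includes the stretch that leads into the cysteine. That of Trdmt1, an enzyme related to DNA methyltransferases, was found by another pattern. The likeness of the NSUN windows at this stretch, and the contrast with Trdmt1, were therefore set by the search. The codon was TGT in 4 genes and TGC in the other 4. In GRCm38 the windows lie at chr13:69623221-69623250 on the plus strand in Nsun2 (codon 321, exon 9 of 19), at chr2:14998230-14998259 on the minus strand in Nsun6 (codon 373, exon 10 of 11) and at chr5:135375403-135375432 on the plus strand in Nsun5 (codon 359, exon 8 of 10). That of Nsun3 lies at chr16:62735352-62735381 on the minus strand (codon 265, exon 6 of 6), that of Nsun4 at chr4:116034245-116034274 on the minus strand (codon 307, exon 6 of 6) and that of Nsun7 at chr5:66289439-66289468 on the plus strand (codon 445, exon 10 of 13). In the other 2 genes the window is joined across an intron. It spans chr2:13523497-13525646 on the minus strand in Trdmt1 (codon 79, exon 3 of 11) and chr6:125141135-125141279 on the plus strand in Nop2 (codon 502, exon 14 of 16). A further cysteine that NSUN enzymes use to release the product was found by its own pattern in 6 of the 7 NSUN genes. In Nsun7 that pattern had no match. Alyref, at chr11:120594504-120598399 on the minus strand, encodes no methyltransferase.

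The libraries were alike in depth, with 16294635 to 16497505 estimated counts. Ybx1 itself stood at 618, 615 and 653 CPM (counts on a scale of 1e+06 per library, after TMM scaling in edgeR) in WT replicates 1, 2 and 3 and at 98.3, 92.2 and 159 CPM in KD replicates 1, 2 and 3, which is -2.43 as a log2 fold change (adjusted p = 1.8e-04 by edgeR's quasi-likelihood test, SE 0.18). KD replicate 3 thus kept the most Ybx1 of the KD libraries. Adjusted p-values below are from the same test over all 13669 genes by the Benjamini-Hochberg method, with a threshold of 0.05. Sums over marker lists were scaled to the library total only, without TMM. Of the marker lists used to check the tissue, forebrain genes summed to 272 to 336 CPM in WT and 380 to 413 CPM in KD, and neuronal genes to 5287 to 5865 and 5246 to 5981 CPM. Microglial genes summed to at most 1.21 CPM and erythroid genes to at most 0.22 CPM in any library, whereas those of the oligodendrocyte lineage summed to 207 to 305 CPM.

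None of the 9 genes passed the threshold in either direction. Over all genes tested, 12% were called higher and 11.9% lower in KD. At an unadjusted p of 0.05 edgeR called 2 of the 9 genes, Nop2 lower and Alyref higher, beside 37.9% of all genes. DESeq2 and limma-voom, run on the same estimated counts, called 0 of the 9 after adjustment, and limma-trend on the deposited TPM values (on the same scale, but divided by transcript length) called 1, Alyref. On TPM, 2076 of all genes were called higher and 1072 lower, where edgeR called 1646 and 1631. The median of all genes on log2(TPM + 1) was shifted upward in KD by 0.05, and the differences given below on that scale include this shift. The median log2 fold change of the 9 genes was -0.03 and that of all genes -0.0013, and without regard to sign the medians were 0.13 and 0.16. The 3 KD libraries lay above all WT libraries in 2 of the 9 genes (Nsun2 and Alyref) and below them in 3 (Nop2, Nsun5 and Nsun4), beside 21% and 20.6% of all genes. With 3 libraries against 3, an exact permutation test of a single gene cannot go below a two-sided p of 0.1. In RNA from a whole culture, fewer cells of a type and less RNA per cell cannot be told apart, which holds for each value that follows.

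**Figure D1:**
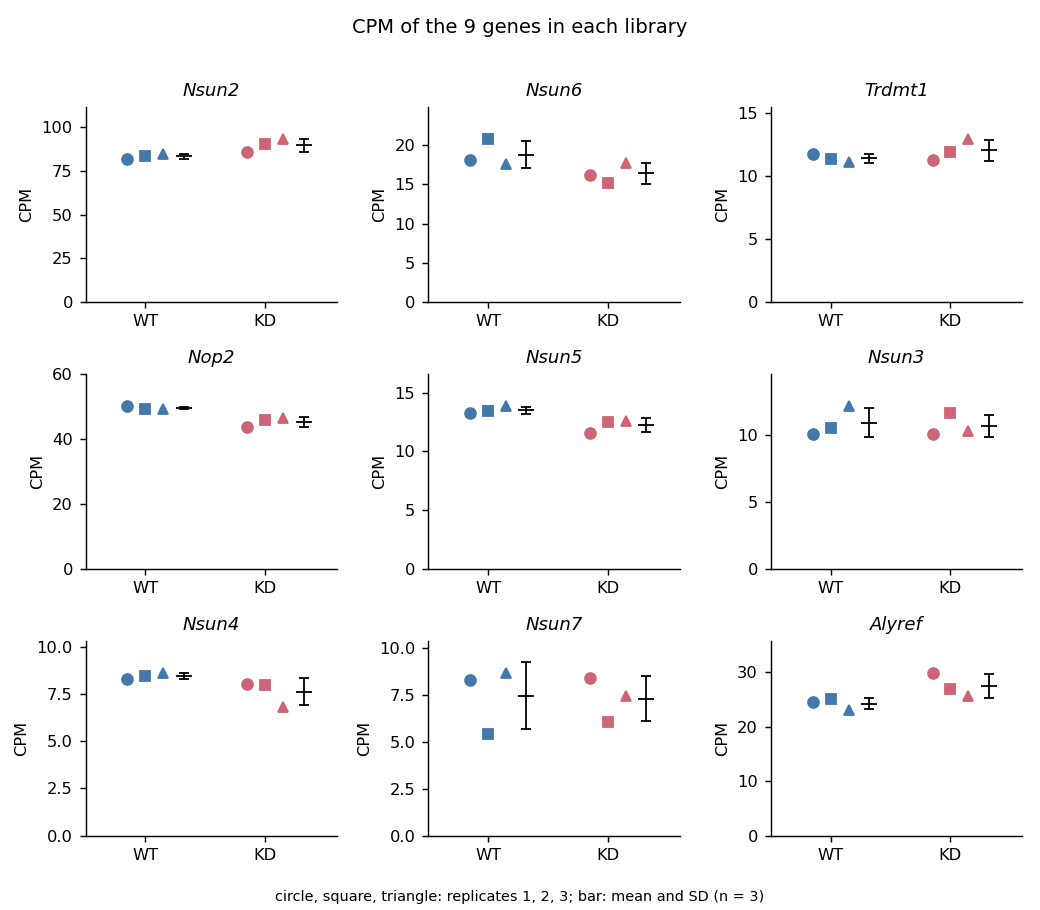
CPM of the 9 genes in each library, with 1 panel per gene, an axis from 0 in each panel, WT in blue and KD in red, replicates 1, 2 and 3 as circle, square and triangle, and a bar for the mean and SD (n = 3). In Nsun2 and Alyref the KD points lie above the WT points, in Nop2, Nsun5 and Nsun4 below them, and in the other 4 genes the groups overlap.

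Among the enzymes of tRNA and mRNA, Nsun2 is the main m5C methyltransferase of mRNA and also modifies many cytoplasmic tRNAs. It was measured at 81.8, 83.8 and 84.5 CPM in WT replicates 1, 2 and 3 and at 85.7, 90.6 and 93.0 CPM in KD replicates 1, 2 and 3, from 1347 to 1535 estimated counts per library. The KD libraries were all above the WT libraries, though KD replicate 1 exceeded the highest WT library by little, and the log2 fold change was 0.11 (SE 0.05, 95% interval -0.01 to 0.22, adjusted p = 0.158). As a percent change of expression in KD, the interval runs from -0.547% to 16.8%. Comparing libraries of the same replicate number, KD was higher in 3 of 3 pairs, by 0.07, 0.11 and 0.14 on the log2 scale.

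Nsun6, which modifies the acceptor stem of a few tRNAs and a set of mRNA sites, was at 18.1, 20.7 and 17.6 CPM in WT and at 16.2, 15.2 and 17.8 CPM in KD. The groups overlapped because KD replicate 3 was above WT replicate 3, and replicate 2 was the highest library in WT and the lowest in KD. The log2 fold change was -0.20 (SE 0.10, 95% interval -0.42 to 0.03, adjusted p = 0.179). It moved to -0.12 without WT replicate 2 and to -0.072 without replicate 2 of both groups. Its estimated counts were fractional in 2 libraries, as can arise where reads fit more than 1 gene and are shared out. The span of Nsun6 overlaps those of Arl5b on the other strand and Gm36930 on the same strand. Whether exons overlap was not checked, and whether the overlaps bear on the fractional counts was not tested. Set against each other, Nsun2 TPM was 5.17, 4.81 and 6.18 times Nsun6 TPM in WT and 6.40, 7.07 and 6.50 times in KD, so that the ratio of these mRNA methyltransferases was higher in every KD library than in every WT library. That ratio was singled out after its values were seen and was not tested.

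Trdmt1, also called Dnmt2, methylates the anticodon loop of a few tRNAs. Its levels were 11.8, 11.4 and 11.1 CPM in WT and 11.3, 11.9 and 12.9 CPM in KD. The WT libraries lay close together and KD replicate 1 fell among them, and the log2 fold change was 0.08 (SE 0.10, 95% interval -0.15 to 0.30, adjusted p = 0.609). This value was 0.026 without KD replicate 3, 0.12 without KD replicate 1 and 0.19 on log2(TPM + 1).

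Nop2 and Nsun5 act on ribosomal RNA. Nop2, also called Nsun1, is a nucleolar protein needed for assembly of the large ribosomal subunit. It was at 50.0, 49.3 and 49.3 CPM in WT and at 43.6, 45.8 and 46.5 CPM in KD. The WT libraries varied by a coefficient of variation of 0.847%, below the counting error of 3.53% that their depth gives, and every KD library was lower. The log2 fold change was -0.13 (SE 0.05, 95% interval -0.25 to -0.01, unadjusted p = 0.0366, adjusted p = 0.107 by edgeR), or -8.59% as a percent change, with KD lower in 3 of 3 pairs. On log2(TPM + 1) the difference was -0.076.

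Nsun5, which methylates another cytosine of the large subunit RNA, was at 13.3, 13.4 and 13.8 CPM in WT and at 11.5, 12.5 and 12.6 CPM in KD. Here too the groups did not overlap, and the log2 fold change was -0.14 (SE 0.09, 95% interval -0.35 to 0.06, adjusted p = 0.285), or -0.092 on log2(TPM + 1). The WT coefficient of variation of 2.10% was again below the counting error, here 6.75%. The counts of Nsun5 were fractional in 6 of 6 libraries. The gene, at chr5:135369930-135376805 on the plus strand, overlaps Pom121 on the other strand, and whether the counting used strand is not given in the sources used here. Whether the overlap bears on the fractional counts was not tested.

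Nsun3 and Nsun4 serve mitochondria. Nsun3, which modifies the wobble position of mitochondrial methionine tRNA, was at 10.1, 10.6 and 12.1 CPM in WT and at 10.1, 11.7 and 10.3 CPM in KD. The groups covered nearly the same range, with a log2 fold change of -0.03 (SE 0.12, 95% interval -0.29 to 0.23, adjusted p = 0.869). The sign of this value turned when WT replicate 3 was left out, giving 0.05, or KD replicate 1, giving 0.0080.

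Nsun4 methylates the small subunit RNA of the mitochondrial ribosome and works with the protein made from Mterf4. It was at 8.32, 8.46 and 8.59 CPM in WT and at 8.06, 7.99 and 6.79 CPM in KD. Estimated counts were 137 to 138 in WT and 112 to 134 in KD. The WT coefficient of variation of 1.65% was below the counting error of 8.53%. All KD libraries were lower, with KD replicate 3 furthest from WT, and the log2 fold change was -0.15 (SE 0.12, 95% interval -0.41 to 0.11, adjusted p = 0.376). Without KD replicate 3 it was -0.073, and on log2(TPM + 1) it was -0.084. Mterf4, added here for its known partnership with Nsun4 after its values were seen, overlapped between the groups and differed by -0.09 on the log2 scale (adjusted p = 0.572 by edgeR).

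Nsun7, the NSUN gene whose RNA substrates are least settled, was at 8.32, 5.43 and 8.66 CPM in WT and at 8.42, 6.04 and 7.46 CPM in KD. Replicate 2 was the lowest library in both groups, and the coefficients of variation, 23.7% in WT and 16.4% in KD, were the highest of the 9 genes, beside a counting error of 9.07% for a WT library. The log2 fold change of -0.03 therefore had a wide interval (SE 0.20, 95% interval -0.48 to 0.41, adjusted p = 0.925), which as a percent change runs from -28.2% to 33.2%. It turned positive with WT replicate 1 left out (0.05), WT replicate 3 (0.09) or KD replicate 2 (0.09). Comparing libraries of the same replicate number, the log2 ratios were 0.02, 0.15 and -0.22. With that number as a block, the estimate was -0.025 and its SE 0.13. The counts were fractional in 6 of 6 libraries. Nsun7 overlaps Apbb2 on the other strand, and whether this bears on the fractional counts was not tested.

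Alyref, the reader, is a subunit of the TREX complex, which loads onto mRNA as it is made and hands it to the export receptor. It was at 24.6, 25.0 and 23.0 CPM in WT and at 29.8, 26.9 and 25.5 CPM in KD, from 370 to 495 estimated counts. Every KD library was above every WT library, with KD replicate 1 the highest and KD replicate 3 only slightly over WT replicate 2. The log2 fold change was 0.18 (SE 0.08, 95% interval 0.00078 to 0.36, unadjusted p = 0.0492, adjusted p = 0.131 by edgeR), or 13.2% higher expression, and KD was higher in 3 of 3 pairs, by 0.28, 0.11 and 0.15. On log2(TPM + 1) with limma-trend the difference was 0.23 (adjusted p = 0.0418), a call where 15.2% of all genes were called higher, and on this scale the median of all genes was shifted by 0.05. Over the 15 other analyses run, Alyref stayed higher in KD, by 0.12 (without KD replicate 1) to 0.23 on the log2 scale, with adjusted p from 0.0418 to 0.354.

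**Figure D2:**
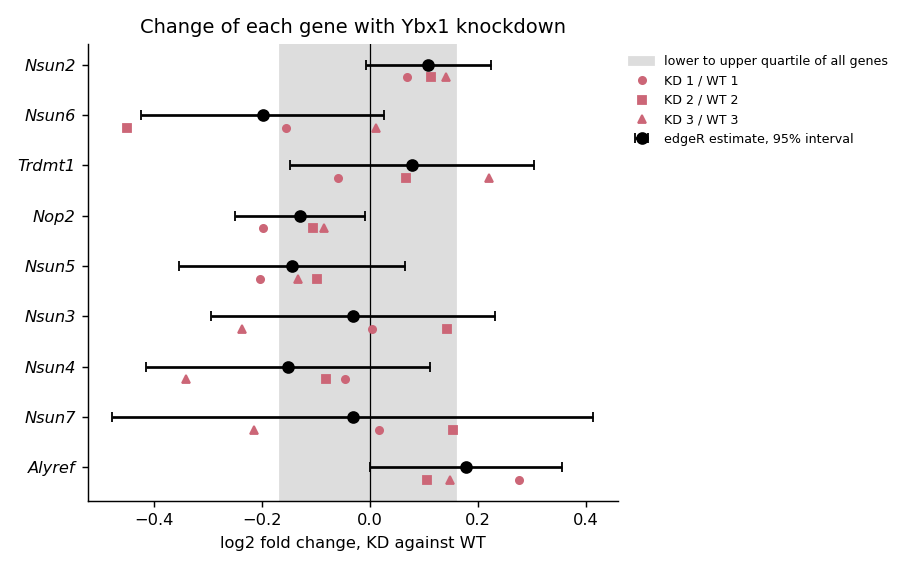
Log2 fold change of each gene, KD against WT, from edgeR with its 95% interval (black), the log2 ratio of KD to WT for each replicate number (red, below the estimate) and the range between the quartiles of all genes tested, -0.17 to 0.16 (grey). The intervals of Nop2 and Alyref leave out 0 and the other 7 contain it, and only Nsun6 (-0.20) and Alyref (0.18) have estimates beyond the grey band.

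Per transcript length, the genes fell into 2 ranges. Alyref had the highest level in WT at 57.4 ± 1.69 TPM (SD, n = 3), followed by Nop2 at 42.2 ± 0.65 and Nsun2 at 41.5 ± 0.999 TPM, whose WT ranges overlapped. By CPM, which is not divided by length, the WT means were 83.3 in Nsun2, 49.5 in Nop2 and 24.2 in Alyref. The remaining 6 genes were lower, with Nsun5 at 12.4 ± 0.248, Nsun4 at 8.63 ± 0.211, Nsun3 at 8.60 ± 0.982, Nsun6 at 7.78 ± 0.839, Trdmt1 at 5.45 ± 0.771 and Nsun7 at 2.91 ± 0.597 TPM. In this order Nsun4 and Nsun3, and Nsun3 and Nsun6, overlapped, and the other neighbours did not. The highest level was 19.7 times the lowest. Among all listed genes ranked by their WT mean, Alyref stood at percentile 81.4, Nsun2 at percentile 75.4 and Nsun7 at percentile 34.1.

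In KD the order was Alyref (67.6 ± 5.90 TPM), Nsun2 (46.4 ± 1.5), Nop2 (40.0 ± 1.08), Nsun5 (11.6 ± 0.848), Nsun4 (8.12 ± 0.927), Nsun3 (7.86 ± 0.876), Nsun6 (6.97 ± 0.28), Trdmt1 (6.36 ± 0.789) and Nsun7 (2.83 ± 0.347). The only change of place was between Nop2 and Nsun2. In WT the ratio of Nsun2 to Nop2 TPM was 0.955, 0.993 and 1.0, and in KD 1.15, 1.16 and 1.17. Thus the mRNA and tRNA enzyme and the ribosomal RNA enzyme were level in WT and apart in each KD library, although neither gene passed the threshold by itself. This ratio, too, was picked after its values were seen. The summed TPM of the 8 methyltransferase genes lay between 128 and 131 in WT and between 127 and 133 in KD, and Nop2 and Nsun2 together made up 64.4% to 65.0% of it in WT and 65.8% to 66.9% in KD.

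**Figure D3:**
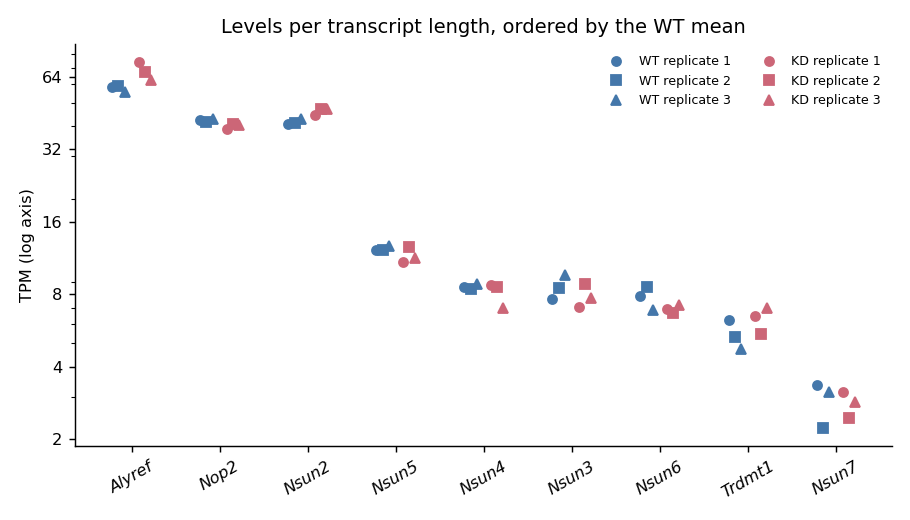
TPM of the 9 genes in each library on a log axis, ordered by the WT mean, with WT in blue, KD in red and replicates 1, 2 and 3 as circle, square and triangle. Alyref, Nop2 and Nsun2 lie at 38.8 TPM or more in every library and the other 6 genes at 12.7 TPM or less, and the Nop2 and Nsun2 points overlap in WT and separate in KD.

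Apart from the median shift of 0.05 on log2(TPM + 1), the CPM and TPM values of some of these genes moved differently. The transcript length implied by the deposited values (the estimated count divided by TPM, relative to the median gene of the library) varied between libraries. Across the 11433 genes with at least 5 CPM, the highest implied length of a gene was 1.01 times the lowest in the median and 1.07 times at the 90th percentile. Nsun2, Nop2 and Alyref were at 1.01 or less. Trdmt1 reached 1.3, Nsun3 1.22, Nsun7 1.16 and Nsun6 1.12. In Nsun3 the mean implied length in KD was 1.11 times that in WT, which goes with its lower TPM and nearly equal CPM. Which transcript isoforms lie behind these lengths was not tested. In WT replicate 1 the implied length was 0.298 for Alyref, 0.826 for Nop2 and 1.41 for Nsun2, so the first place of Alyref by TPM rests on its short length. The GENCODE transcript chosen here has 3527 bases for Alyref, 2597 for Nop2 and 2834 for Nsun2. Which transcript models the deposited TPM used is not given in the sources used here.

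Genes with related functions were described from lists that do not contain the 9 genes. Of 9 genes for other m5C readers and oxidases of 5-methylcytosine, 2 were called higher and 0 lower, beside 12% and 11.9% of all genes, with a median log2 fold change of 0.09. The splicing factor gene Srsf2 rose from a mean of 173 to 195 CPM (0.18, adjusted p = 0.0248 by edgeR) and Fmr1, the gene of the fragile X protein, from 90.5 to 102 CPM (0.17, adjusted p = 0.0275). These calls were fragile. That of Srsf2 was lost without WT replicate 1 (adjusted p = 0.0694), WT replicate 2 (0.0672), KD replicate 1 (0.0629) or KD replicate 3 (0.0686). That of Fmr1 was lost without WT replicate 1 (0.058), WT replicate 2 (0.0857), KD replicate 1 (0.0662), KD replicate 2 (0.09) or KD replicate 3 (0.0626).

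Of 17 tested mRNA export genes, the set in which Alyref works, 5 were called higher and 0 lower, beside 12% and 11.9% of all genes, and 14 had a log2 fold change above 0, as had 6796 of the 13669 genes tested. Their median log2 fold change was 0.14, where that of Alyref was 0.18. Thoc6, a subunit of the THO core of TREX, rose from 8.58 to 13.7 CPM (0.68, adjusted p = 0.00377 by edgeR), although its counts were fractional in 6 of 6 libraries. The cap-binding protein gene Ncbp3 rose from 22.1 to 34.8 CPM (0.65, adjusted p = 0.00163), and Nxf1, the mRNA export receptor, from 122 to 158 CPM (0.38, adjusted p = 0.00196). The calls of these 3 held with each library left out in turn. Without replicate 2 of both groups, 1 export gene was called higher. The other 2 called genes, Poldip3 (0.30) and Ddx39b (0.18), are named after their values were seen. The call of Ddx39b was lost without WT replicate 1 (adjusted p = 0.0644 by edgeR), WT replicate 2 (0.067) or KD replicate 1 (0.0512).

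The tRNA and ribosomal RNA modification genes give the background for the writers. Of 23 tRNA modification genes, 0 were called higher and 1 lower by edgeR, beside 12% and 11.9% of all genes, with a median of 0.0040. At an unadjusted p of 0.05 there were 5, beside 37.9% of all genes. The gene called lower was Trmt1, which makes dimethylguanosine in tRNA and went from 62.7 to 52.6 CPM (-0.25, adjusted p = 0.0240), a call lost without WT replicate 1 (adjusted p = 0.0508), WT replicate 2 (0.0863), KD replicate 1 (0.0708) or KD replicate 3 (0.0729).

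Of 22 tested ribosomal RNA modification genes, 4 were called higher and 1 lower, with a median of 0.03. These are 18.2% and 4.55% of the list, beside 12% and 11.9% of all genes. Snu13, a protein of the box C/D particles that guide ribose methylation, rose from 76.9 to 111 CPM (0.53, adjusted p = 6.5e-04 by edgeR, counts fractional in 6 of 6 libraries). Zcchc4, an adenosine methyltransferase of ribosomal RNA, rose from 13.8 to 17.2 CPM (0.31, adjusted p = 0.0388), and this call held only without WT replicate 2, with adjusted p = 0.0968, 0.0902, 0.0977, 0.112 and 0.0612 without WT replicate 1, WT replicate 3, KD replicate 1, KD replicate 2 and KD replicate 3. Dkc1, the pseudouridine synthase of ribosomal RNA, rose from 24.9 to 30.8 CPM (0.30, adjusted p = 0.0142), which was lost without WT replicate 2 (adjusted p = 0.0577). Rrp8, an adenosine methyltransferase of the large subunit RNA, fell from 20.6 to 14.1 CPM (-0.54, adjusted p = 0.00312), and did so with each library left out. The remaining called gene, Emg1 (0.29), is named after its values were seen, and its call was lost without WT replicate 2 (adjusted p = 0.0963 by edgeR), WT replicate 3 (0.074), KD replicate 1 (0.0988) or KD replicate 3 (0.0775).

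**Figure D4:**
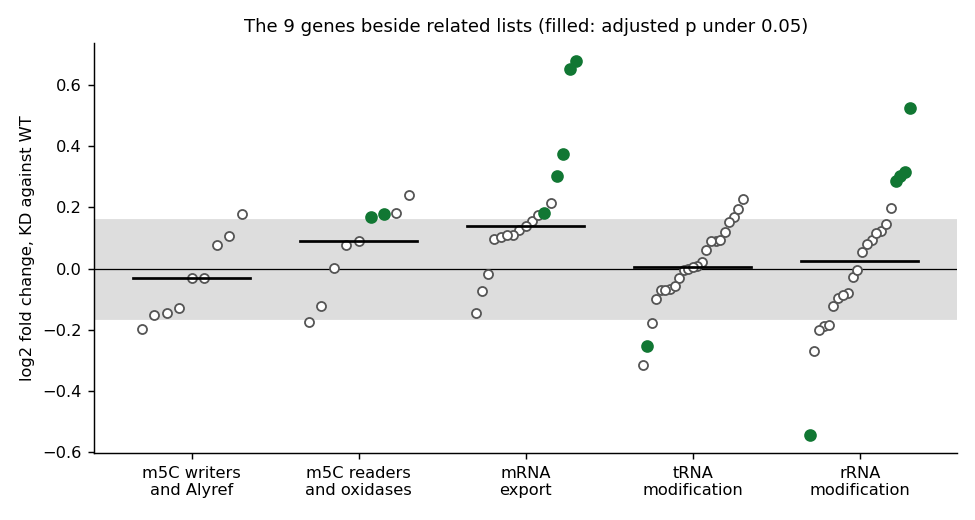
Log2 fold change, KD against WT, of the 9 genes and of 4 related lists (1 point per gene, filled where the edgeR adjusted p is under 0.05), with a bar at each median and the range between the quartiles of all genes tested in grey. The 9 genes have 0 filled points and a median of -0.03, whereas 5 of 17 mRNA export genes are filled and their median is 0.14.

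Some markers of cell types and of the cell cycle moved between the groups in the same libraries. All 3 intermediate progenitor genes were called higher in KD, beside 12% of all genes (11.9% were called lower). They summed, again without TMM scaling, to 32.5 to 43.4 CPM in WT and 97.4 to 126 CPM in KD. Of 11 genes of cycling cells 9 were called higher, with sums of 490 to 564 CPM in WT and 689 to 923 CPM in KD, and of 6 radial glia genes 2 were called higher, with sums of 1069 to 1105 and 1125 to 1353 CPM. Forebrain genes, with 1 of 3 called higher, summed to 272 to 336 CPM in WT and 380 to 413 CPM in KD. The mesenchyme list, with 3 genes tested and 1 called higher, summed to 8.18 to 12.6 CPM in WT and 11.3 to 14.6 CPM in KD. Of 6 neuronal genes 1 was called higher and 1 lower. Of 3 astrocyte genes and 4 oligodendrocyte lineage genes, 0 were called in either direction. KD replicate 1, the library with the highest Alyref and the lowest Nop2, also had the highest sums of the intermediate progenitor, cycling cell and radial glia lists. Nsun2, which was higher in KD, was at 85.7 CPM in that library, against 90.6 and 93.0 CPM in KD replicates 2 and 3. The part of these markers in the values of Nsun2, Nop2 and Alyref was not tested.

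The profiles of 7 of the 9 genes over the 6 libraries were compared with those of 11438 genes with a mean of at least 5 CPM, by the root mean square difference of centred log2 CPM, and the 3 closest genes to each are named as a description. They were Pkig, Plat and Nhp2 for Nsun6, Rnf13, Brat1 and Gfpt2 for Trdmt1, and Hsph1, Mff and Tmem70 for Nop2. For Nsun5 they were Farp1, Tmem70 and Ctnnbip1, for Nsun4 Mob1b, Dhx38 and Zswim4, and for Alyref Acin1, Mrps9 and Bcl11b. Tmem70 was thus among the closest to both Nop2 and Nsun5. The distances ran from 0.0144 for Hsph1 to 0.103 for Adgra2, which with Rarb and Crabp1 was closest to Nsun7.

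**Figure D5:**
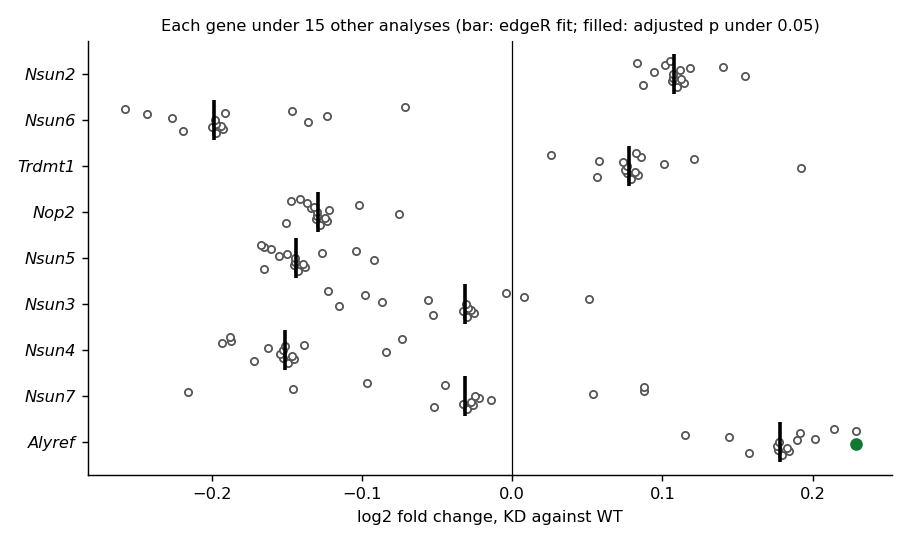
Log2 fold change of each gene, KD against WT, under the edgeR fit (bar) and under 15 other analyses (points, filled where the adjusted p is under 0.05). Of the 9 genes, 7 kept their sign throughout, Nsun3 and Nsun7 have points on both sides of 0, and the single filled point is Alyref at 0.23 from the TPM values.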

How the data were processed

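The methods describe mRNA purification and sequencing on the DNBSEQ platform. Per the labels, the submitters' processing notes name HISAT2 2.2.1, Bowtie2 2.4.5 and RSEM 1.3.1 and the builds GRCm38 and mm10, with no role given, and the annotation is not given in the sources used here. The authors deposited for each gene and library an estimated count and a TPM value, both used here. A further 12 columns, 6 of FPKM and 6 of averages, were not used. The table names the control columns Ctrl, and each was matched by its number to a WT title.

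The design had foreseen whole counts, so the estimated counts were rounded. They were compared between KD and WT in edgeR 4.0.16 (R 4.3.3) by the quasi-likelihood test, after TMM scaling and filterByExpr at its minimum count of 10, with Benjamini-Hochberg adjustment over 13669 genes and a threshold of 0.05. The SE was taken from the size of the log2 fold change and the F statistic (ratio of the first to the root of the second), and the 95% interval uses the t quantile at the total degrees of freedom of the fit. The procedure was tested on simulated counts with the same dispersion for every gene and no effect shared by replicate number. That test therefore does not give the error rates in these data. Genomic positions of genes are from RefSeq (GRCm38.p6), and coding windows are from GENCODE M21 transcripts, read with Biopython 1.88.

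Replicates of a group differed by 4.59 to 9.05 in chi-square per degree of freedom, so all 6 libraries were counted separately. Same-numbered WT and KD libraries deviated together (r over genes of 0.35, 0.32 and 0.18, against -0.28 to -0.02 for other numbers). Deviations within a group sum to 0 for each gene, so positive values for the same numbers go with negative values for the others. No label states what the numbers mean, and a pairing was not established. The unpaired fit was the principal one, and the edgeR values given for each of the 9 genes are from it unless the block is named. The coefficient of variation common to all genes was 7.69% in the unpaired fit and 4.71% with the replicate number as a block. Under the replicate block, the lowest adjusted p of the 9 genes by edgeR were 0.0608 (Alyref), 0.102 (Nop2), 0.114 (Nsun6) and 0.117 (Nsun2).

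The genes named are the 9 genes, Ybx1, up to 3 of the largest rises and falls past the threshold in each related list, and the 3 closest profiles, which for Nsun2 and Nsun3 are not reported here. Genes and lists were chosen with earlier results of these data known. Of the listed genes, Ddx39a and Trmt61b had no entry under that name in the table used here. Alternatives were other scalings (RLE, upper quartile), filters (none, at least 1 CPM in 3 libraries), DESeq2 1.42.0, limma-voom and limma-trend on log2(TPM + 1) (limma 3.58.1), the replicate number as a block, and leaving out libraries.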

Additional observations from a re-analysis of the deposited data

How the results depend on the processing

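Of the 9 genes, 0 were called higher and 0 lower in 14 of 15 other analyses, and limma-trend on TPM called 1 higher (Alyref). Precision is limited by 3 libraries per group. With the replicate number as a block, edgeR called 2539 genes higher and 2470 lower in place of 1646 and 1631, 4 readers and oxidases higher in place of 2, 1 export gene lower and 2 tRNA modification genes higher in place of 0, and it changed the call of none of the 9 genes. Limma-trend on TPM called 1072 genes lower, 10 export genes higher, and 1 tRNA modification gene higher and 0 lower.

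With each library left out in turn, all genes called higher ranged from 779 to 1612 and lower from 797 to 1583, readers and oxidases higher from 0 to 3, tRNA modification genes lower from 0 to 1, and ribosomal RNA modification genes higher from 2 to 3. The lowest of the counts over all genes came without WT replicate 2, and 884 higher and 849 lower were called without KD replicate 2. Without replicate 2 of both groups, 135 genes were called higher and 93 lower, with 0 readers and oxidases higher, 1 export gene higher, 0 tRNA modification genes lower, and 1 ribosomal RNA modification gene higher and 0 lower. Over the single libraries left out, the log2 fold change ranged from -0.098 to 0.051 in Nsun3 and from -0.22 to 0.088 in Nsun7. It turned positive for Nsun3 without WT replicate 3 (0.051) or KD replicate 1 (0.0080), and for Nsun7 without WT replicate 1 (0.053), WT replicate 3 (0.087) or KD replicate 2 (0.088), none past the threshold. The causes were not tested. Of 330 values over 22 results, 289 kept their direction and side of the threshold, or stayed within 1.5 times a count.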
